A study of Mus musculus with 12 samples.

Results

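The complement and coagulation genes described here are 35 of the 54532 genes of the count table. They were picked by gene symbol, as genes of plasma complement and clotting proteins made by liver. Of these, 18 belong to complement and 17 to coagulation and its control. The libraries came from liver and subcutaneous fat of male mice that had received, at 10 weeks of age, a tail vein injection of an adeno-associated virus (AAV8) whose thyroxine-binding globulin promoter is active in hepatocytes. The vector carried full-length human HKDC1, a hexokinase domain protein (hHKDC1 OE), or no gene (null), and all mice were kept on a low-fat diet for the following 16 weeks. Each tissue and vector gave 3 libraries, 12 in all. The strain was not given in the sources used here, and nothing says whether a liver and a fat library with the same number came from the same mouse. The labels describe replicates 2 and 3 of the hHKDC1 OE libraries of both tissues as knockouts, against their titles and their treatment field; titles and treatment were followed here. The human transgene has no row in the mouse count table, and mouse Hkdc1 had 0 to 8 counts in every library, so the table itself holds no check of the vector.

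Complement is a cascade of plasma proteases and scaffold proteins. Antibody or sugar-binding lectins start it through C1, C4 and C2, the alternative pathway amplifies it through factor B, all routes meet at C3, and C5 to C9 assemble the membrane attack complex. Coagulation is a second cascade of plasma proteases that ends in thrombin cutting fibrinogen to fibrin, held in check by antithrombin, protein C and plasmin. Hepatocytes make most of these proteins, several complement genes are also transcribed in macrophages, fibroblasts and adipocytes, and C3, fibrinogen and other members are known acute phase genes in liver.

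Total counts on genes were 15496019 to 19954971 per library. Liver libraries held 72420 to 111681 CPM (counts scaled to library size) from 10 hepatocyte genes and at most 27.1 CPM from 6 adipocyte genes. Fat libraries held 14502 to 23824 CPM from the adipocyte genes and 781 to 7589 CPM from the hepatocyte genes. The chi-square per gene between replicates was at least 21.8, so no library was counted again.

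The 35 genes took 3.15%, 3.21% and 3.28% of all counts in the 3 null liver libraries. In the hHKDC1 OE livers they took 5.04%, 3.21% and 4.40%, so replicates 1 and 3 lay above every null library and replicate 2 lay within them. In fat they took 0.214% to 0.384%. Levels per length are given as FPKM, fragments scaled to exon length and library size, as means of 3 libraries. In null liver, vitronectin (Vtn), which binds and blocks the terminal complement complex, had the highest level of the 35. It was followed by the fibrinogen gamma and alpha chains (Fgg and Fga), C3 and the fibrinogen beta chain (Fgb). Their means were 1862 FPKM for Vtn, 1633 for Fgg, 1293 for Fga, 1136 for C3 and 1063 for Fgb. The lowest levels were those of Masp1, a protease of the lectin pathway, at 22.1 FPKM, C2 at 11.1 FPKM and complement factor B (Cfb) at 1.87 FPKM.

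Not all 35 genes have their exon bases to themselves. The libraries do not keep strand. In the GENCODE M21 annotation of GRCm38, 79.5% of the exon bases of Cfb and 42.8% of those of C2 also belong to Gm20547. This gene model joins both and had 0 counts in every library. Cfb had 52 to 162 counts in liver and 18 to 87 in fat, and the part of the overlap in these low counts was not tested. Masp2 shares 54.9% of its exon bases with Tardbp on the other strand, Klkb1 shares 43.2% with Gm45753 and Serpinc1 shares 34.4% with Zbtb37. C1s1 shares 18.4% with Gm16567 on the other strand, which had 0 counts, and 7.90% of its 100-base windows with C1s2. Of such windows, C1ra shares 34.5% with C1rb and C4b shares 16.5% with C4a. Smaller shares, of 3.53% to 11.3% of exon bases or windows, were found for Plg with Slc22a3, Kng1 with Kng2, Fgg with Gm30097, C2 with Zbtb12 and F5 with Gm16548. Hc shares 1.21% with Gm13449. The levels of these 13 genes are uncertain for this reason, and by how much was not tested.

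**Figure D1:**
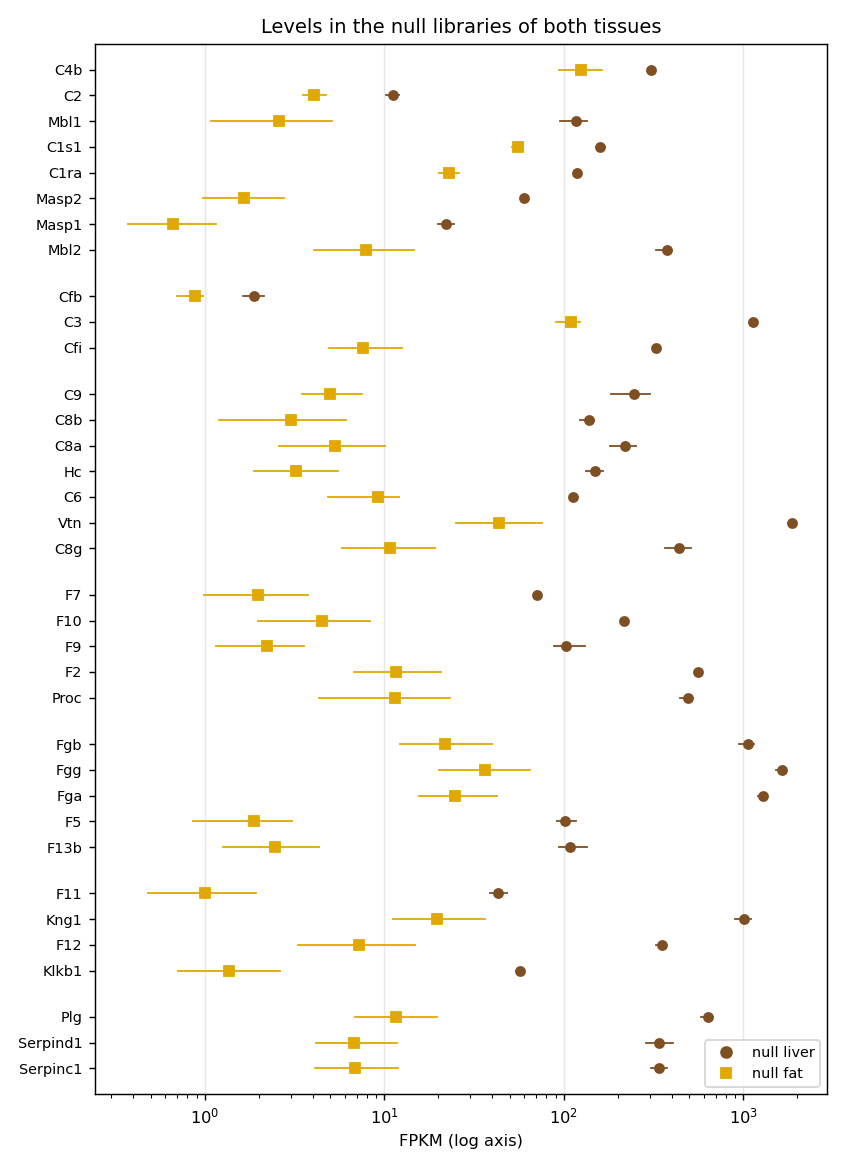
Level of each gene (FPKM, log axis) in null liver (circles) and null fat (squares), with the mean of 3 libraries as symbol and the lowest to the highest library as line. Most genes lie far apart in the tissues, whereas C4b, C2, C1s1, C1ra and Cfb lie close together.

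In liver, no gene passed the test of hHKDC1 OE against null after adjustment, among the 35 or among all 13351 genes tested (0% called, quasi-likelihood test of edgeR, Benjamini-Hochberg adjusted). All 35 genes passed the filter on low counts. Of the 18 complement genes 15 had higher and 3 (C8g, Masp1 and Mbl2) lower levels with hHKDC1 OE, with a median log2 fold change of 0.44. Of the 17 coagulation genes 13 were higher and 4 lower, with a median of 0.09, and the median over all genes tested was 0.01. Over all 35 genes the median was 0.20, with 28 higher and 7 lower. At an unadjusted p under 0.05 stood 5 of the 35, all higher, where 3.89% of all genes were higher at that level. None of the 35 was lower at that level, where 3.05% of all genes were. DESeq2 called 91 genes in liver and none of the 35. Without a filter on low counts edgeR called 327 genes, among them C8a, C8b and C9 (adjusted p = 0.027, 0.012 and 0.0046).

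The 5 genes were C9, C8b, C8a, Hc and C4b. C9 is the protein that polymerises into the pore of the membrane attack complex. Its normalised CPM, scaled within the tissue, were 553, 474 and 348.5 in null liver and 1228, 401 and 828 in hHKDC1 OE liver. Replicates 1 and 3 of hHKDC1 OE lay above every null library and replicate 2 lay among them, so the groups overlapped. The log2 fold change of C9 was 0.84 ± 0.35 (SE, n = 3 per group; edgeR adjusted p = 0.69).

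C8a and C8b encode the alpha and beta chains of C8, which inserts into the membrane ahead of C9, and lie beside each other on chromosome 4 (104766317 to 104876398). C8a had 466, 609 and 682 normalised CPM in null and 1262, 492 and 1169.8 in hHKDC1 OE. C8b had 224, 278 and 275 in null and 547, 209 and 552 in hHKDC1 OE. In both genes replicate 2 of hHKDC1 OE fell within or below the null libraries. The log2 fold changes were 0.74 ± 0.32 for C8a and 0.75 ± 0.32 for C8b (SE, n = 3 per group; edgeR adjusted p = 0.71 and 0.69). The third chain, C8g, a lipocalin encoded on chromosome 2 (25498651 to 25501719), did not follow them. It had 544, 483 and 406 normalised CPM in null and 468, 439 and 391 in hHKDC1 OE, a log2 fold change of -0.14 ± 0.17 with overlapping groups.

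Hc, the mouse gene of C5, from which the complex starts to form, had 735, 697 and 624 normalised CPM in null and 1402, 597 and 1319 in hHKDC1 OE. C4b, the opsonin precursor of the classical and lectin pathways, had 1275, 1250.0 and 1315 in null and 2382, 1235 and 2193 in hHKDC1 OE. Again replicates 1 and 3 stood above all null libraries and replicate 2 below them. The log2 fold changes were 0.69 ± 0.29 for Hc and 0.60 ± 0.24 for C4b (SE, n = 3 per group; edgeR adjusted p = 0.69 and 0.66).

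C3, on which all pathways converge, lies on chromosome 17 (57203970 to 57228136). It had 4205, 4491 and 4153 normalised CPM in null liver and 9396, 3853 and 7070 in hHKDC1 OE liver. The means were 4283 ± 182 and 6773 ± 2784 (SD, n = 3), so the spread within hHKDC1 OE was wider than the difference between the means. The log2 fold change was 0.66 ± 0.29 (SE, n = 3 per group; edgeR adjusted p = 0.72), and a two-sided exact permutation test over the 6 libraries gave p = 0.4, where the smallest that 3 against 3 libraries allow is 0.1.

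The other members of the terminal pathway were C6, which joins C5b, and Vtn, with log2 fold changes of 0.46 and 0.45. The pathway as a whole had 6 of 7 genes higher and a median of 0.69. The 8 genes of the classical and lectin pathways had a median of 0.17. Within them C2, the protease partner of C4b, stood at 0.43, Mbl1, a mannose-binding lectin, at 0.30 and the second lectin Mbl2 at -0.22. C1ra and C1s1, the proteases of the C1 complex, stood at 0.16 and 0.17. Cfi, which cleaves and inactivates C3b and C4b, stood at 0.33 and Cfb at 0.67.

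Among the coagulation genes the fibrinogen chains had the largest log2 differences. The 3 genes lie together on chromosome 3 (83007724 to 83049863) and encode the chains of one protein. Fgb had 2985, 2672 and 3255 normalised CPM in null liver and 5381.5, 2936 and 3829 in hHKDC1 OE liver. Fga had 2825, 2679 and 3060.0 in null and 4434, 2689 and 3649.6 in hHKDC1 OE. Replicates 1 and 3 of hHKDC1 OE were the highest libraries for both, and replicate 2 fell within the null range. The log2 fold changes were 0.45 for Fgb, 0.34 for Fgg and 0.33 for Fga (edgeR adjusted p = 0.78, 0.83 and 0.82). That of Fgb was 0.19 without hHKDC1 OE replicate 1 and 0.63 without replicate 2.

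The proteases and inhibitors of clotting differed less. Prothrombin (F2) had 1854, 1893 and 1863.5 normalised CPM in null liver and 2398, 1745 and 1841 in hHKDC1 OE liver, so that replicate 1 stood above and the other 2 just below the null libraries. Antithrombin (Serpinc1), which inhibits thrombin and factor X, had 2295, 2080.1 and 1955 in null and 2418, 1876 and 1846 in hHKDC1 OE. Their log2 fold changes were 0.09 ± 0.18 for F2 and -0.04 ± 0.18 for Serpinc1 (SE, n = 3 per group). The vitamin K dependent genes F2, F7, F9, F10 and Proc had a median of 0.19, and the contact system genes F11, F12, Kng1 and Klkb1 a median of 0.07. Plg, the precursor of plasmin, stood at 0.28, and the thrombin inhibitor Serpind1 at 0.02.

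**Figure D2:**
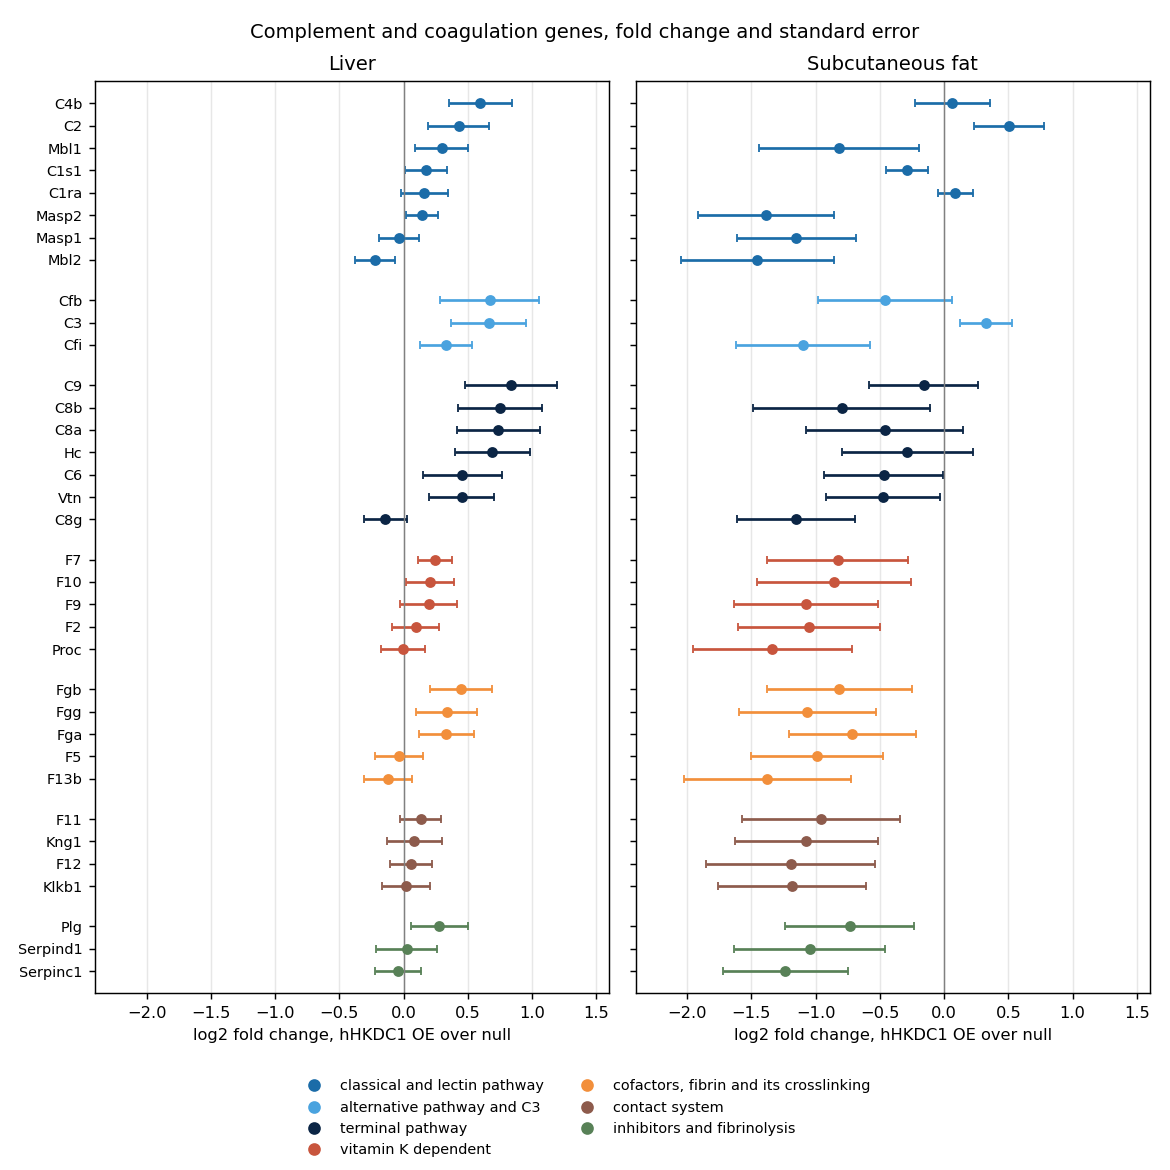
Log2 fold change of hHKDC1 OE over null with its standard error (edgeR, n = 3 libraries per group) for each of the 35 genes in liver (left) and subcutaneous fat (right), ordered by role. In liver the terminal pathway genes other than C8g lie to the right of 0, and in fat every coagulation gene lies to the left of it.

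The groups did not overlap in liver for 2 of the 35 genes, both higher with hHKDC1 OE, where this held for 6.31% of all genes tested. Masp2, the protease that starts the lectin pathway, had 145, 146 and 147 normalised CPM in null and 158, 165 and 161 in hHKDC1 OE. F7, the protease that tissue factor activates, had 94.1, 97.8 and 97.5 in null and 125, 105 and 112 in hHKDC1 OE. Every hHKDC1 OE library was higher than every null library for both, but the log2 fold changes were small, at 0.14 and 0.24. None of the 35 had all hHKDC1 OE livers below the null livers, which held for 6.18% of all genes.

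The 3 hHKDC1 OE livers differed from each other throughout the list. Replicate 1 exceeded every null library in 30 of the 35 genes, replicate 3 in 22 and replicate 2 in 2, and replicate 2 lay below every null library in 24. The median log2 difference from the null mean was 0.52 in replicate 1, 0.25 in replicate 3 and -0.17 in replicate 2. Without replicate 2, edgeR called 5 of the 35 genes higher, C3, C4b, C8a, C8b and Hc, where 0.567% of all genes were called higher. Their log2 fold changes were then 0.94, 0.84, 1.05, 1.08 and 0.99 (edgeR adjusted p = 0.041, 0.033, 0.033, 0.014 and 0.019), and that of C9 was 1.16 (edgeR adjusted p = 0.053). The complement median was then 0.67 and the coagulation median 0.22. Replicate 2 was left out after its values had been seen. Leaving out replicate 1 instead lowered the log2 fold changes of C3, C4b, C8a, C9 and Hc to 0.35, 0.42, 0.51, 0.42 and 0.48. C8b was lowest, at 0.55, without replicate 3. None of these genes was called in either fit.

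**Figure D3:**
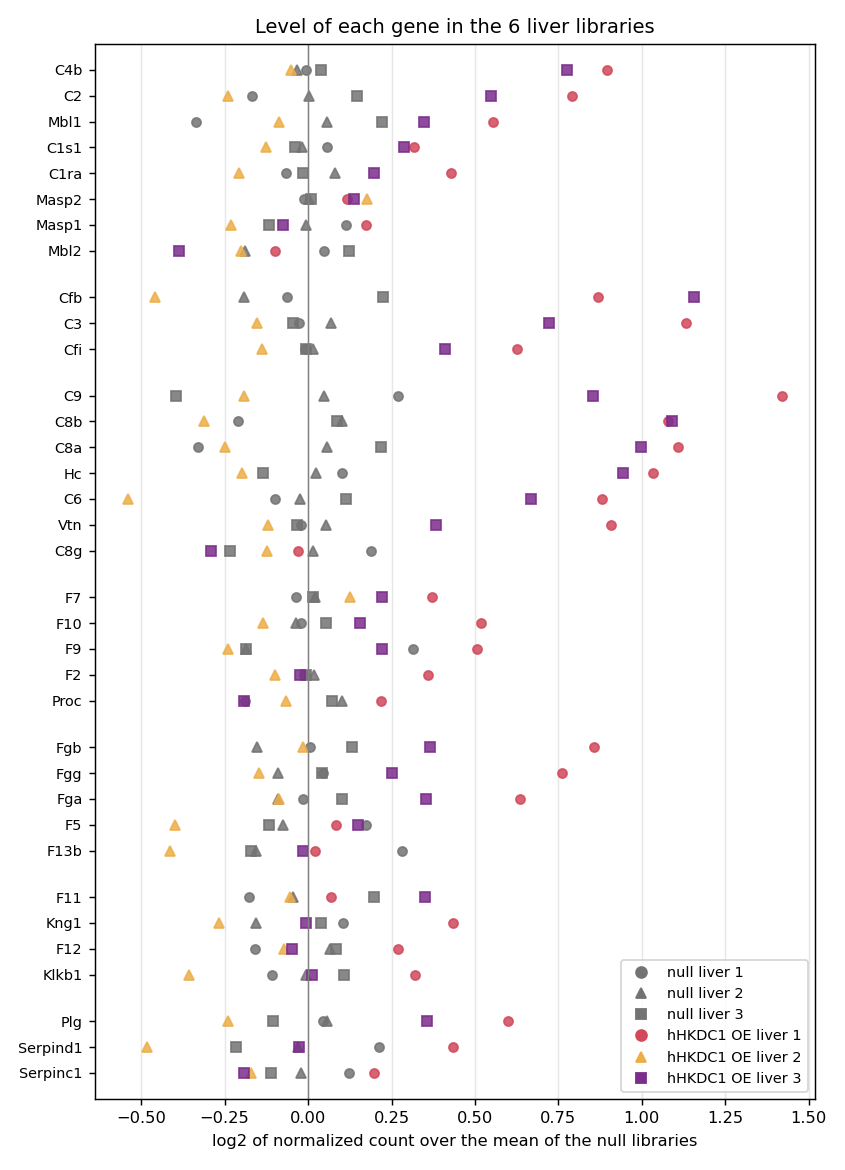
Each of the 35 genes in the 6 liver libraries, as log2 of the normalised count over the mean of the 3 null libraries, with genes ordered by role. The hHKDC1 OE replicates 1 (red circles) and 3 (purple squares) lie to the right for most complement genes and fibrinogen chains, and replicate 2 (orange triangles) lies among or left of the null libraries (grey) for all genes but F7 and Masp2.

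Other gene lists also differed between the livers, not all in the same libraries. Of 10 acute phase genes listed for reference, all 10 were higher with hHKDC1 OE at an unadjusted p under 0.05 (median log2 fold change 3.10), and their summed level was 41664, 10402 and 30340.5 CPM in hHKDC1 OE replicates 1, 2 and 3 against 6296 to 8415 CPM in null liver. Of 8 Kupffer cell and macrophage markers 7 were higher (median 0.82), with summed levels of 122 to 206 CPM in null liver and 370, 222 and 201 CPM in hHKDC1 OE replicates 1, 2 and 3 and no marker at 0, so that replicate 3 lay within the null range. Of 10 hepatocyte genes 8 were lower (median -0.25), with Alb at -0.62. All 5 endothelial markers were lower (median -0.79), with summed levels of 80.7 to 114 CPM in null liver and 50.7, 98.7 and 52.1 CPM in hHKDC1 OE replicates 1, 2 and 3. The summed level of 4 cholangiocyte markers was 44.9 to 51.0 CPM in null liver and 83.6, 41.2 and 71.6 CPM in hHKDC1 OE replicates 1, 2 and 3, with no marker at 0. This sum followed Spp1 (log2 fold change 0.46), while the other 3 markers were lower (median of the 4, -0.49). Their part in the levels of the 35 genes was not tested.

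Further genes of both cascades were counted from fixed lists. Of 27 other complement genes tested in liver, 17 were higher and 5 were so at an unadjusted p under 0.05. These were C1qb and C1qc, chains of the C1q recognition molecule, at 0.83 and 0.81, properdin (Cfp), which stabilises the alternative convertase, at 0.93, the macrophage complement receptor Vsig4 at 0.85 and ficolin A (Fcna) at 0.42. Of 22 other coagulation genes, tissue factor (F3) was higher at that level, at 0.96. Thrombomodulin (Thbd), von Willebrand factor (Vwf) and factor VIII (F8), which endothelial cells express, were lower, at -2.45, -1.25 and -0.68. None passed after adjustment (smallest edgeR adjusted p = 0.16, for Thbd).

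Up to 250 bases before the RefSeq start (GRCm38.p6) of the genes with the lowest liver p-values, and of C3 and Fgb, are shown because these members differed together between the livers. RefSeq promoters were at hand for 27 of the 35 genes, in 29 windows, and C4b was not among them. Bases inside the gene of the count table are left out. Capitals mark matches on either strand to TTGCNNAA, a core of C/EBP sites, GTTAATNA, a core of HNF1 sites, and TTCNNNGAA, the spacing of STAT sites.
C9, chr15:6445096-6445326, plus strand: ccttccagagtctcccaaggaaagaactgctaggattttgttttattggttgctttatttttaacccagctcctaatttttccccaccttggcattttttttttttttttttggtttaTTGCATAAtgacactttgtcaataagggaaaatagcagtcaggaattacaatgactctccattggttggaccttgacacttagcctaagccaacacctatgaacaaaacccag
C8a, chr4:104876399-104876648, minus strand: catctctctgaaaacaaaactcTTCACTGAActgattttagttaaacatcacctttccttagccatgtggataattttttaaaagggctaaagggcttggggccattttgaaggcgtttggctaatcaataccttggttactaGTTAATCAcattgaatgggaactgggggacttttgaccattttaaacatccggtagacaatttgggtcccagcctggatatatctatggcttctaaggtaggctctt
C8b, chr4:104766067-104766316, plus strand: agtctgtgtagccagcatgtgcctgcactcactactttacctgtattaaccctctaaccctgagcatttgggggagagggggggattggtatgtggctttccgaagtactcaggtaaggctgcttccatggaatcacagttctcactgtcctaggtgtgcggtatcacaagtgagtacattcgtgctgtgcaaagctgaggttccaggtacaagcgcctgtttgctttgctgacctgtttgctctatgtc
Hc, chr2:35061439-35061662, minus strand: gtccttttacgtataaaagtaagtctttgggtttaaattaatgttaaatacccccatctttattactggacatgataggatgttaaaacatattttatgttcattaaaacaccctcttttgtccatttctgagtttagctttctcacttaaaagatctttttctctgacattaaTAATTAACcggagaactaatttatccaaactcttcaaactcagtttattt
C3, chr17:57228137-57228386, minus strand: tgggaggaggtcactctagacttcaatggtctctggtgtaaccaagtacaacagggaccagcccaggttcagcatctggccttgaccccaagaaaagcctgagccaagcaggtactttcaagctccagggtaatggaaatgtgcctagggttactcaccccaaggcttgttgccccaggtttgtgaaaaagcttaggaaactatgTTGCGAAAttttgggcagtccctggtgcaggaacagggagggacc
Fgb, chr3:83049864-83050113, minus strand: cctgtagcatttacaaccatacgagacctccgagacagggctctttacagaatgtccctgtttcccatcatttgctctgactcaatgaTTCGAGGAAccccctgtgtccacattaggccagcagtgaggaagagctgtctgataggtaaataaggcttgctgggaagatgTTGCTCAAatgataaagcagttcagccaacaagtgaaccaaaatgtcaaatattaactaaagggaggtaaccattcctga
C9, C3 and Fgb carried the C/EBP letters, Hc and C8a those of HNF1, C8a and Fgb those of STAT, and no matches overlapped in these 6 windows. Over the 29 windows, TTGCNNAA was found in 8 (C1s1, C3, C9, F11, F9, Fga, Fgb and Klkb1), against 9.56% of all 32851 promoters. TTCNNNGAA was found in 5 (C8a, F9, Fga, Fgb and Masp2), against 7.02%, and GTTAATNA in 4 (C8a, F13b, Fga and Hc), against 2.33%. CAAAGTNCA, a core of HNF4 sites, was found in 1 window, that of F9, against 1.19%, and GGGANTTTC, a core of NF-kB sites, in none, against 0.94%. The C/EBP letters stood in 3 of 15 complement and 5 of 14 coagulation windows. A match describes letters only.

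Between the tissues of null mice, all 35 genes were lower in fat than in liver and passed the test, where 30.5% of 15259 genes were called lower in fat and 64.3% were called in either direction. The median log2 fold change was -5.52. For 28 of the 35 the value was -5.11 or lower, and the other 7 were all complement genes. These were C6 at -3.66, C3 at -3.44, C1ra at -2.41, C1s1 at -1.56, C2 at -1.51, C4b at -1.36 and Cfb at -1.15. The 10 hepatocyte genes fell by a like amount, with a median of -5.63.

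The hepatocyte genes were used as a scale for liver RNA in fat. Their summed level in fat, as a percentage of that in liver of the same vector, was 2.29%, 2.20% and 6.93% in the null libraries and 2.61%, 0.930% and 1.42% in the hHKDC1 OE libraries. Each gene's liver level was multiplied by this share to give a predicted level in fat. The ratio of the observed to the predicted level had a median of 1.07 over 30 of the 35 genes, and 25 of these stayed within a factor of 2 of the prediction in every fat library. F2 lay at 0.92 to 1.15 and Fgb at 0.91 to 1.01. The source of the hepatocyte gene counts in fat was not tested.

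Only 5 of the 35 genes, C4b, C2, C1s1, C1ra and Cfb, exceeded the prediction more than 3 times in every fat library. C4b stood at 10.1 to 73.3 times, C2 at 11.3 to 67.8 times, C1s1 at 9.62 to 59.8 times and C1ra at 5.86 to 36.9 times, and Cfb, on few counts, at 12.3 to 77.9 times. Just below this limit lay C3 at 2.64 to 14.2 times and C6 at 2.09 to 15.1 times. In CPM, C4b in fat reached 41.1% to 93.1% of its liver mean, C2 48.3% to 96.4%, C1s1 41.7% to 66.6%, C1ra 29.7% to 40.6% and Cfb, on few counts, 18.4% to 96.3%, and C3, just below the limit, reached 13.2% to 19.0%. C4b, C2 and Cfb lie within one stretch of chromosome 17 (34728380 to 34898265), and C1ra and C1s1 lie beside each other on chromosome 6 (124512405 to 124542359). Per length, C4b with 124 ± 35.7 FPKM and C3 with 109 ± 16.6 FPKM (SD, n = 3) had the highest levels of the 35 genes in null fat.

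**Figure D4:**
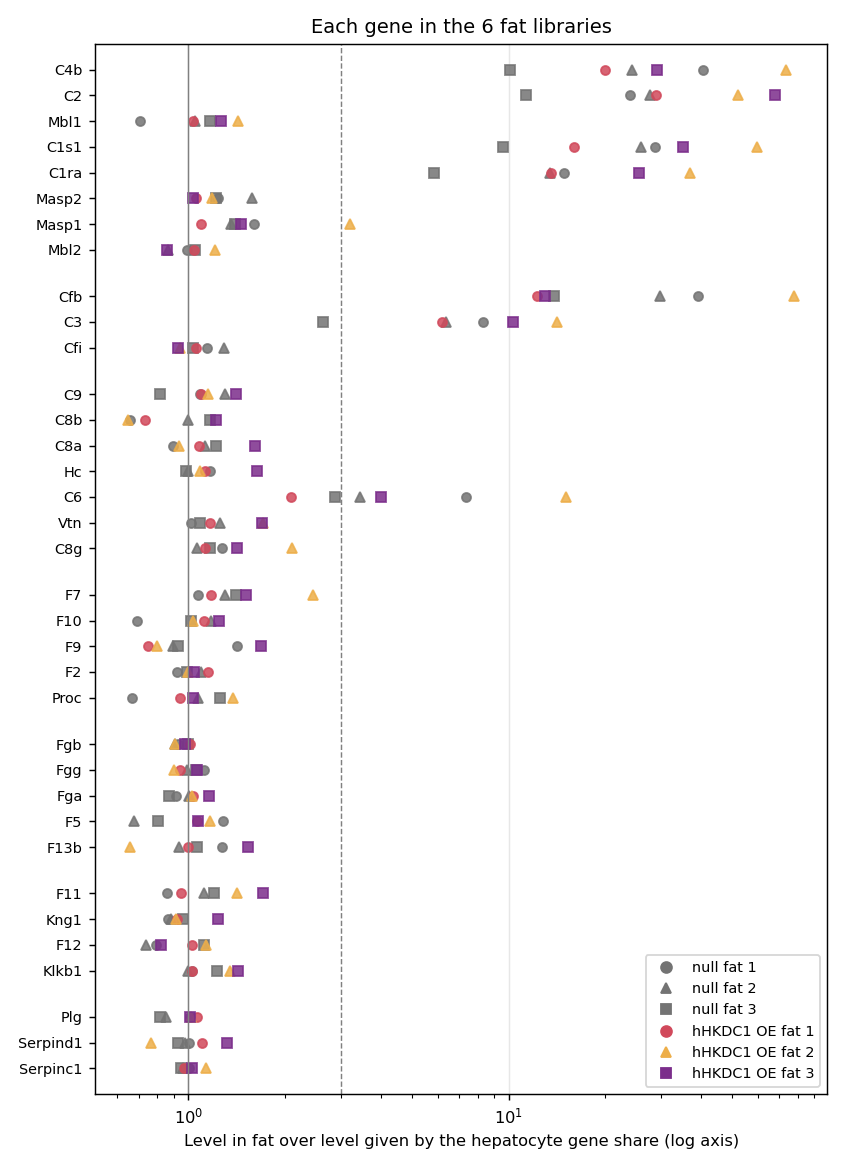
Level of each gene in the 6 fat libraries over the level given by the library's share of hepatocyte genes (log axis), with a solid line at 1 and a dashed line at 3. C4b, C2, C1s1, C1ra and Cfb lie to the right of the dashed line in every library, and the coagulation genes lie around 1.

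In fat, no gene passed the test of hHKDC1 OE against null after adjustment, among the 35 or among all 16380 genes tested (0% called, edgeR). DESeq2 called 1431 genes in fat and none of the 35. The mean levels of 31 of the 35 were lower with hHKDC1 OE, with a median log2 fold change of -0.86 against -0.05 over all genes. At an unadjusted p under 0.05 stood 5 genes, all lower, where 6.39% of all genes were lower at that level. None was higher at that level, where 11.3% of all genes were. All 17 coagulation genes were lower, with log2 fold changes from -1.38 to -0.71. The 10 hepatocyte genes were lower too, all 10 with a median of -1.45, with summed levels of 2410 to 7589 CPM in null fat and 781 to 2193 CPM in hHKDC1 OE fat and none at 0. In these bulk samples fewer cells of a type, less RNA per cell and a smaller share of liver RNA in a library cannot be told apart.

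The 5 genes were Mbl2, Masp2, Serpinc1, C8g and Masp1. Serpinc1 had 51.4, 48.1 and 135 normalised CPM in the null libraries against 49.6, 20.7 and 29.2 with hHKDC1 OE. Null replicate 3 was the highest and the groups overlapped. Masp2 had 4.38, 5.46 and 12.04 in null and 4.31, 1.71 and 2.34 in hHKDC1 OE, where the groups were apart by little. The log2 fold changes were -1.45 for Mbl2, -1.38 for Masp2, -1.24 for Serpinc1 and -1.15 for both C8g and Masp1 (edgeR adjusted p = 0.27, 0.25, 0.26, 0.26 and 0.26). Without null replicate 3 they were -0.69 for Mbl2, -0.85 for Masp2, -0.61 for Serpinc1, -0.49 for C8g and -0.53 for Masp1. All 5 stayed at most 3.19 times the predicted level in every fat library.

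The groups did not overlap in fat for 3 of the 35 genes, C1s1, Masp1 and Masp2, all lower, where this held for 10.2% of all genes. None of the 35 was apart in the higher direction, where 12.5% of all genes were. C1s1 is the one of these above 3 times the predicted level in every fat library. Its normalised CPM were 250.001, 221 and 235 in the null libraries against 164, 217 and 198 with hHKDC1 OE, and its log2 fold change was -0.29 ± 0.16 (SE, n = 3 per group; edgeR adjusted p = 0.39).

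Of the other genes above 3 times the predicted level, and C3 just below it, C4b, C2, C1ra and C3 had positive log2 fold changes and Cfb a negative one. C4b had 1256.5, 732.5 and 871 normalised CPM in the null libraries against 961, 1254 and 774 with hHKDC1 OE. C2 had 18.4, 20.7 and 24.2 in null and 30.6, 19.5 and 39.7 in hHKDC1 OE. C3 had 860.0, 644.5 and 763 in null and 1038, 844 and 959.7 in hHKDC1 OE. The groups overlapped in each. For C2 only hHKDC1 OE replicate 2 lay within the null range, and for C3 only null replicate 1 and hHKDC1 OE replicate 2 were out of order. The log2 fold changes were 0.06 ± 0.29 for C4b, 0.50 ± 0.28 for C2, 0.33 ± 0.20 for C3 and 0.09 ± 0.14 for C1ra (SE, n = 3 per group; edgeR adjusted p = 0.92, 0.37, 0.43 and 0.75). Cfb, on 18 to 87 counts, had 3.65, 2.73 and 3.64 normalised CPM in the null libraries against 1.89, 4.25 and 1.11 with hHKDC1 OE, so the groups overlapped. Its log2 fold change was -0.46 ± 0.52 (SE, n = 3 per group; edgeR adjusted p = 0.65), and it was negative under all 15 alternatives, from -1.15 to -0.12. The signs for C4b and C1ra turned when single libraries were left out, C4b without null replicate 2 (-0.12), null replicate 3 (-0.01) or hHKDC1 OE replicate 2 (-0.15), and C1ra without null replicate 2 (-0.03).

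Single libraries set much of the difference in fat. Null replicate 3 was the highest of the 6 fat libraries in 30 of the 35 genes and in all 17 coagulation genes. Without it the median log2 fold change was -0.26, with 0.04 over the complement and -0.34 over the coagulation genes, and none of the 35 was called. Without hHKDC1 OE replicate 2, which had the lowest hepatocyte gene share, C2 was called higher (log2 fold change 0.73, edgeR adjusted p = 0.045), where 11.4% of all genes were called higher. The fat libraries also differed in skeletal muscle genes. The summed level of 5 such genes was 15248, 18223 and 479 CPM in null replicates 1, 2 and 3 and 15420, 1053 and 2339 CPM in those of hHKDC1 OE, with none at 0 and all 5 lower with hHKDC1 OE (median -0.91). Null replicate 3 was thus the lowest of the 6 in muscle genes and the highest in hepatocyte genes. The summed level of 6 fat stroma markers was 3649, 2673 and 4074 CPM in null replicates 1, 2 and 3 and 1646, 5153 and 2530.0 CPM in those of hHKDC1 OE, with 5 of 6 lower (median -0.26) and none at 0. Among the hHKDC1 OE libraries replicate 2 was the highest in stroma markers and also in C1s1, C4b and Cfb. It was the lowest of them in C2, C3 and C1ra. Of 4 genes listed as markers of liver stellate cells the 3 tested were lower (median -0.94). The 4 had summed levels of 493 to 1329 CPM in null and 614 to 691 CPM in hHKDC1 OE, with none at 0. Between null fat and null liver 2 of the 4 were called higher in fat and 2 lower, so their sum in fat does not measure that cell type. Of the 10 acute phase genes 8 were higher in hHKDC1 OE fat (median 1.15), with summed levels of 1508 to 2587 CPM in null and 2109 to 4016 CPM in hHKDC1 OE. At an unadjusted p under 0.05 stood 5 higher and 1 lower, where 11.3% and 6.39% of all genes were, and none passed after adjustment. Lymphocyte markers differed between the vectors. All 6 B cell and all 6 T cell markers were higher in hHKDC1 OE fat (medians 8.02 and 5.26), with summed levels of 1.47 to 2.79 and 3.72 to 10.3 CPM in null fat and 46.4 to 830 and 29.9 to 493 CPM in hHKDC1 OE fat, and with 1 B cell marker at 0 in null replicate 3. Of the macrophage markers 7 of 8 were higher (median 0.89; 94.3 to 223 CPM in null, 311 to 560 CPM in hHKDC1 OE, none at 0). The part of the muscle, stroma, stellate cell, acute phase, lymphocyte and macrophage genes in the levels of the 35 genes was not tested.

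Of 29 other complement genes tested in fat, 8 were higher at an unadjusted p under 0.05 and none was lower. These were Cr2, a complement receptor of B cells, at 6.17, the leukocyte integrin chains Itgb2, Itgax and Itgam at 2.10, 1.34 and 1.08, clusterin (Clu), which binds the terminal complex, at 1.86, Cfp at 1.35, and C1qc and C1qa both at 0.92. Adipsin (Cfd), the factor B protease that adipocytes secrete, stood at 0.03, with 4255 ± 1344 normalised CPM in null and 4350.0 ± 632 in hHKDC1 OE (SD, n = 3). Of 28 other coagulation genes, F2rl1, a protease-activated receptor, was higher at that level, at 1.79, and Tfpi2, Thbd, Serpine2 and Lman1 were lower, at -1.16, -0.85, -0.78 and -0.32. None passed after adjustment (smallest edgeR adjusted p = 0.13).

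The effects of the vector in fat and in liver were compared by the interaction term of a fit over all 12 libraries. The difference, fat minus liver, was negative for 33 of the 35 genes, with a median of -1.04 on the log2 scale against 0.03 over all 17070 genes tested. None passed after adjustment (0% called, edgeR). At an unadjusted p under 0.05 stood Masp2, Cfi and Masp1, at -1.45, -1.35 and -1.04 (edgeR adjusted p = 0.25, 0.38 and 0.38), all lower in fat, where 3.67% of all genes were, and no member was higher in fat, where 9% were. The 10 hepatocyte genes had a median of -1.19 in the same test.

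Levels were also set against the hepatocyte genes within each library. The terminal pathway genes C8a, C8b, C9 and Hc were summed per 100 counts of the 10 hepatocyte genes, and these 4 were picked after their liver values had been seen, so the ratio is a description with no test. It was 1.68, 1.87 and 1.78 in null liver and 1.78, 1.96 and 1.85 in null fat. In hHKDC1 OE liver it was 4.89, 1.95 and 5.58, and in hHKDC1 OE fat 4.20, 3.99 and 6.06. The null libraries of both tissues thus lay in one narrow range, and of the hHKDC1 OE libraries only liver replicate 2 lay in it too. The fat library with the same number, on 600 counts of the 4 genes, did not. For F2, Serpinc1, Proc and Kng1, members with small differences in liver, the ratio was 6.12, 6.11 and 6.36 in null liver and 5.63, 6.06 and 6.13 in null fat. It was 9.60, 7.06 and 9.48 in hHKDC1 OE liver and 8.60, 8.93 and 9.52 in hHKDC1 OE fat. Every hHKDC1 OE library lay above the null libraries here, liver replicate 2 included, and the hepatocyte genes in the denominator were themselves lower in hHKDC1 OE liver.

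**Figure D5:**
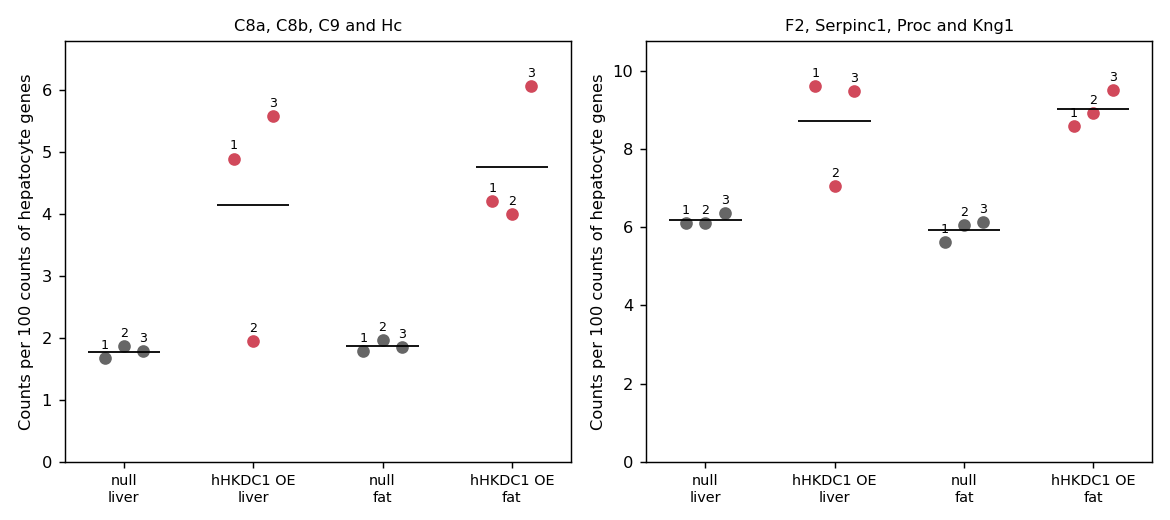
Summed counts of C8a, C8b, C9 and Hc (left) and of F2, Serpinc1, Proc and Kng1 (right) per 100 counts of 10 hepatocyte genes in each of the 12 libraries, numbered by replicate, with a line at the group mean. On the left, hHKDC1 OE liver replicate 2 at 1.95 lies with the null libraries, and the hHKDC1 OE fat libraries lie between 3.99 and 6.06.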

How the data were processed

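Liver and subcutaneous fat libraries, 3 per group, were placed in their groups by sample title and treatment. Per the submitters' processing notes, the authors used STAR 2.5 to map paired reads and HTSeq 0.6.1 for gene counts. The methods name a second STAR version as well, libraries that do not keep strand, and a human genome, whereas the genes are mouse, and 33 of the 35 members have the same position in GENCODE M21 (GRCm38). The deposited count table holds whole-number counts, not normalized. The authors also deposited FPKM, used here for levels per length and in limma. The authors' own table of the fat comparison (log2 fold changes and p-values) was not used.

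Counts were fitted per tissue with edgeR 4.0.16 (R 4.3.3; TMM scaling, filterByExpr, quasi-likelihood test, Benjamini-Hochberg adjustment over all genes tested, threshold 0.05), the interaction over 12 libraries, and null fat against null liver over 6. Fold changes are hHKDC1 OE over null. Alternatives were DESeq2 1.42.0, limma 3.58.1 on log2(FPKM + 1) and log2(FPKM + 0.1), other scalings and filters, a replicate block and each library left out. The steps were tested on simulated data. For the fat libraries the study gives 3 mice per group. Nothing says so for the liver libraries, where p-values measure the spread between libraries, which may be technical. The sample labels do not pair null and hHKDC1 OE libraries by number. In liver the numbers were taken as a possible pairing, from the data alone. Deviations of same-numbered null and hHKDC1 OE livers correlated at 0.22, 0.19 and 0.10, and those of other pairs at -0.21 to 0.07. In fat the same-numbered values were 0.02, -0.13 and 0.04. This does not establish pairing, and the main fits are unpaired, with the replicate block as an alternative. Totals of 15496019 to 19954971 counts limit precision for members with few counts.

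The members and lists were chosen with earlier results of these data known. Named members were C3, Fgb, those at an unadjusted p under 0.05 in a tissue, and those above 3 times the predicted level in every fat library. Genes named from the other complement and coagulation lists are those at an unadjusted p under 0.05, with Cfd. From the marker lists only Alb and Spp1 were named, and Spp1 was not at that level.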

Additional observations from a re-analysis of the deposited data

Results flagged for a closer look

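Masp2 was the one member whose groups did not overlap in either tissue and moved in opposite directions. It was higher in every hHKDC1 OE liver library and lower in every hHKDC1 OE fat library, and the difference of the log2 fold changes, fat minus liver, was -1.45 (edgeR adjusted p = 0.25), which did not pass. The fat values rest on 35 to 225 counts per library, and 54.9% of the exon bases of Masp2 overlap Tardbp. The fat groups were apart by little. In every fat library Masp2 stayed at 1.04 to 1.58 times the level predicted from the hepatocyte gene share. The 10 hepatocyte genes had a median of -1.19 in the same interaction test. Of all genes tested, 6.31% were apart and higher in liver, and 10.2% apart and lower in fat. How many were both was not counted.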

How the results depend on the processing

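The median log2 fold change of the 35 genes kept its sign under every alternative run, from 0.10 to 0.35 in liver and from -1.23 to -0.26 in fat. None of the 35 passed in the main test of either tissue. In liver 5 did at an unadjusted p, and 3 without a filter on low counts (C8a, C8b and C9). Why these passed without the filter was not tested. With each library left out 0 to 5 did, the 5 without hHKDC1 OE liver replicate 2. In fat 5 did at an unadjusted p, and 0 to 1 with each library left out, the 1 (C2) without hHKDC1 OE fat replicate 2. With each library left out, the log2 fold change in fat ranged from -0.15 to 0.29 for C4b and from -0.030 to 0.14 for C1ra. Above the level given by the hepatocyte gene share stood 5 genes at 3 times, 7 at 2 times and 3 at 10 times (C2, C4b and Cfb). Predicting from the liver library of the same number, an alternative chosen after seeing the data, left 5, but it raised the ratios in hHKDC1 OE fat replicate 2, as for C4b from 73.3 to 120.5, Cfb from 77.9 to 179, C3 from 14.2 to 26.0 and C6 from 15.1 to 31.3. The genes within a factor of 2 in every library were then 22 in place of 25, without C9 (up to 2.43), Hc (up to 2.11) and Vtn (up to 2.65). It also lowered the smallest ratios, to 9.47 for C4b, 9.88 for C2 and 7.73 for Cfb, so that none of these 3 stayed above 10 in every library, and to 1.69 for C6, which then left the genes above 2. Between null fat and null liver 33 to 35 passed.

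With the replicate block none of the 35 passed in liver or in fat (medians 0.18 and -0.77), none in the interaction and 35 between tissues, so pairing changed no call. It raised the calls over all genes from 0 to 17 in liver, to 168 in fat and to 4 in the interaction. A fit of all 12 libraries called 867 genes in fat, and leaving out hHKDC1 OE replicate 2 called 146 genes in liver and 3251 in fat. DESeq2 called 91 genes in liver, 1431 in fat and 497 in the interaction, and edgeR without a filter 327, 803 and 479, in each case none of the 35 except the 3 named. Scaling by library size alone moved the median of all genes in fat from -0.05 to 0.11 and between tissues from 0.09 to 0.98.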
